A study of Mus musculus with 8 samples.

Results

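The genes described are 43 components of the regulated exocytosis machinery, the proteins that dock, prime and fuse secretory granules with the plasma membrane. They were taken by gene symbol from a list and divided into 26 neuroendocrine isoforms, 12 broadly expressed components and 5 acinar isoforms. The acinar ones were Vamp8, Rab3d, Rab27b, Snap23 and Stxbp2. Both the list and the classes were chosen with earlier results of these data known. Of the 43, 42 had a probe under that symbol among the 41174 non-control probes of the array, and 41 had a probe well above background on at least 4 of 8 arrays. The 2 without a test were Stx2, which the array lists under the older name Epim, and Doc2b, a soluble calcium sensor whose 1 probe was well above background on 0 of 4 Glis3KO2 arrays and 1 of 4 WT arrays. Of the 41, 40 were well above background on all 8 arrays, and Rab3c was so on 3 Glis3KO2 and 3 WT arrays.

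The arrays hold total RNA of whole pancreas from 4 Glis3KO2 and 4 WT mice of the C57BL/6 strain aged 1 week, kept with their mother. Glis3 is a zinc finger transcription factor needed for pancreatic beta cells and for insulin gene expression, and Glis3KO2 mice carry a knockout of it. The labels do not say which part of the gene is deleted or whether it is deleted in other tissues. The Glis3 probe was well above background on 0 of 4 Glis3KO2 arrays and 3 of 4 WT arrays, and since the deleted part is not given, its place relative to the deletion is unknown.

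A secretory granule fuses when a SNARE protein on its membrane zips together with SNAREs on the plasma membrane. Rab GTPases and their effectors bring the granule to its site, priming factors make it ready, and synaptotagmins sense calcium and trigger release. Neurons and endocrine cells of the islet share most isoforms of this machinery. The acinar cells that release digestive enzymes use a different set, with Vamp8 on the zymogen granule and Snap23 at the plasma membrane. Whole pancreas of a pup is mostly acinar tissue, with islets, ducts, vessels and nerves as minor parts.

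Probes of some members with large differences (Scgn and Cadps), a pair that differed in the size of its difference (Syt13) and the acinar granule SNARE (Vamp8) are shown first. For Cadps the dimmer probe is shown, not the one that gave its main value. Sytl4, the member with the most negative difference, is not shown. All sequences are those of the array file, 5′ to 3′, with positions in mouse build mm7. The files give no exon or UTR for a probe. The Scgn probe maps to chr13:23327937-23328594 on the minus strand, a stretch of 658 bases for a 60-base probe. The dimmer Cadps probe lies at chr14:10227432-10227491 on the minus strand. The Syt13 pair lies at chr2:92806377-92806436 for the brighter probe, of which bases 31 to 60 are shown with AATAAA in capitals (the letters of the usual polyadenylation signal), and at chr2:92791550-92791609 for the dimmer one, both on the plus strand. The Vamp8 pair lies at chr6:72403457-72403516 and chr6:72406234-72406293 on the minus strand. Syn1 is shown because its brightest probe, at chrX:19353787-19353846 on the minus strand, is 81.7% G and C, with runs of 5 or more of these bases in capitals.
Scgn probe: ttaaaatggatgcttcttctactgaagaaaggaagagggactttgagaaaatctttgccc
Cadps dimmer probe: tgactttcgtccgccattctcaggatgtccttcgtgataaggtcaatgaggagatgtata
Syt13 brighter probe, bases 31 to 60: tcttacagtggtaAATAAAtcgttttccaa
Syt13 dimmer probe: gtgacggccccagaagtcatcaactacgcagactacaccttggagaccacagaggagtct
Vamp8 brighter probe: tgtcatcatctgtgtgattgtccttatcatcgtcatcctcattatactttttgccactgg
Vamp8 dimmer probe: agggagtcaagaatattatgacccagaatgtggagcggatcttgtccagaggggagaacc
Syn1 brightest probe: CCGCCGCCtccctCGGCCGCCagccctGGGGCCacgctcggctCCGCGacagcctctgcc

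Signals are given as a percentage of the array's own 75th percentile of signal, so that 100% is the level that 3 in 4 spots of that array did not exceed, and differences are Glis3KO2 minus WT on the log2 scale. A percentage serves to compare arrays for 1 probe, and no gene's level is set against another's. Sums over a marker list are given only to compare arrays, and their brightest probes set them. The 75th percentile itself was between 462 and 694 units on Glis3KO2 arrays and between 460.4 and 527 units on WT arrays, and 76.1% to 80.7% of probes were well above background on Glis3KO2 arrays, against 79.3% to 86.5% on WT arrays. Glis3KO2 replicates 3 and 4 stood apart on the first principal component of all tested probes, at 39.8 and 59.0, against -13.0 and 0.46 for Glis3KO2 replicates 2 and 1 and -26.0 to -15.4 for WT. Xist, the transcript of the inactive X chromosome, was at a high level on 3 Glis3KO2 arrays and 1 WT array, so sex was not balanced. Each slide carried the arrays of 1 genotype, and an effect of the slide cannot be told apart from one of genotype. The labels give no litter or culture, and the p-values rest on the variation among these 8 pancreases.

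Relative to the 75th percentile of each array, the neuroendocrine isoforms were mostly lower in Glis3KO2 pancreas, and the acinar ones lay close to no difference. The median log2 difference was -0.36 over the 25 tested neuroendocrine members, -0.06 over the 11 broadly expressed ones and 0.03 over the 5 acinar ones, against -0.01 over all 33239 tested probes. Of the neuroendocrine members 21 of 25 had a negative difference, of the broad ones 7 of 11 and of the acinar ones 1 of 5, beside 52.0% of all probes. In 12 neuroendocrine members all 4 Glis3KO2 arrays were below all 4 WT arrays, which was so for 3.35% of all probes. No member had all Glis3KO2 arrays above all WT arrays, which was so for 1.86% of probes (5.2% in either direction). With quantile normalization the acinar median was -0.01, so that it has no settled direction. Because the classes were set with earlier results of these data known, the class medians and counts are a description and not a test.

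The 10 spike-in probes, which read control RNAs added to the sample, had a median difference of -0.28 on this scale, and 9 of them were below 0. Scaling each array to them instead, an alternative chosen after seeing the data, added 0.28 to every member's log2 difference and moved the median of all probes to 0.27. The medians were then -0.08 for the neuroendocrine, 0.22 for the broad and 0.31 for the acinar members, so the neuroendocrine median stayed below that of all probes, and 15 of 25 neuroendocrine members were below 0. Cadps, Scgn and Syt13 remained separate, and 14 of the 41 members turned from negative to positive, Cplx2 among the 12 that had been separate. Differences below are therefore relative to the bulk of probes on the array.

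None of the 41 members passed an adjusted p of 0.05 in limma's test with Benjamini-Hochberg adjustment over all probes, beside 85 of 33239 probes, or 0.256%. At an unadjusted p of 0.05, 13 members were lower, all of them neuroendocrine, and 0 higher, beside 5.87% and 3.1% of all probes. The lowest adjusted p was 0.0914, for Scgn. Over 21 alternative settings up to 3 members passed, and those that passed under any were Scgn, Syt13, Sytl4 and Cadps. Scgn, Syt13 and Sytl4 did so with normexp background correction, and Cadps, Scgn and Syt13 with a trended and robust variance. Scgn alone passed with quantile or median scaling, and Syt13 alone with array weights or without Glis3KO2 replicate 1. In whole tissue, fewer cells of a type and less RNA per cell cannot be told apart.

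**Figure D1:**
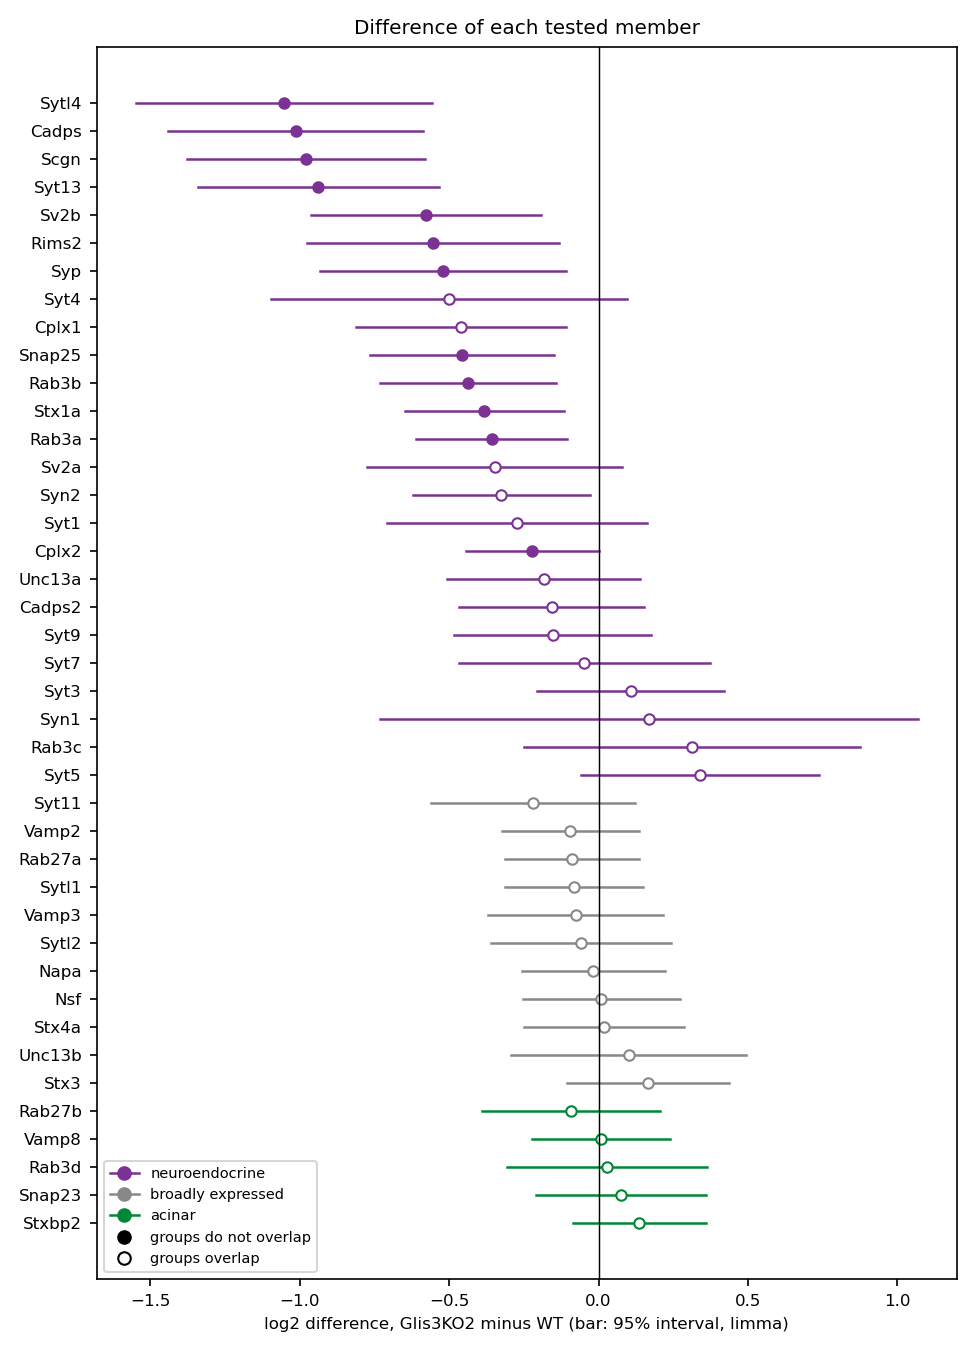
Log2 difference (Glis3KO2 minus WT) of each of the 41 tested members with its 95% interval from limma, in 3 classes and ordered by size within each class. Filled points mark members whose 4 Glis3KO2 and 4 WT arrays do not overlap: all 12 are neuroendocrine and lie between -1.05 and -0.22. On the spike-in scale every point would lie 0.28 further to the right.

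The neuroendocrine median was below WT on every Glis3KO2 array. Relative to each gene's WT mean, the neuroendocrine median was -0.21, -0.26, -0.56 and -0.42 on Glis3KO2 replicates 1 to 4, against -0.15, -0.03, 0.01 and 0.08 on WT replicates 1 to 4. The 2 genotypes did not overlap, and the lowest values were those of Glis3KO2 replicates 3 and 4. Without those 2 arrays the median difference was -0.27. The acinar median was -0.01, -0.10, 0.11 and 0.21 on Glis3KO2 arrays, against 0.02, 0.04, 0.00 and -0.06 on WT arrays, and the groups overlapped. The broad median was -0.02, -0.07, 0.01 and -0.13 on Glis3KO2 arrays, against -0.02, 0.01, 0.07 and -0.05 on WT arrays, which also overlapped.

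**Figure D2:**
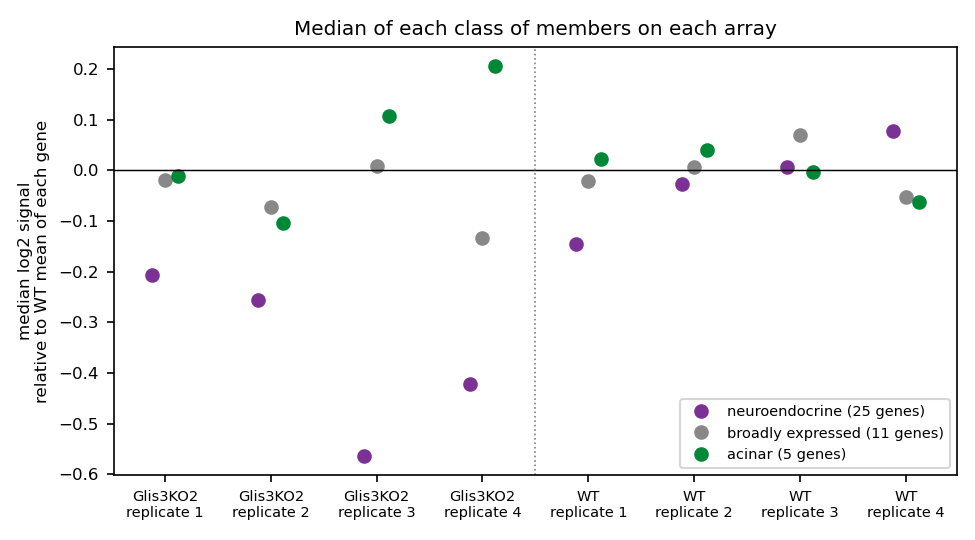
Median log2 signal of the 25 neuroendocrine, 11 broad and 5 acinar members on each array, relative to each gene's mean over the 4 WT arrays. The neuroendocrine medians of the Glis3KO2 arrays lie between -0.56 and -0.21, below the WT arrays, which lie between -0.15 and 0.08.

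Of the 5 tested target membrane SNAREs, Snap25 and Stx1a were separate between genotypes. Snap25, which gives the neuronal and endocrine SNARE complex 2 of its helices, measured 30.0, 26.9, 24.4 and 24.3% in Glis3KO2 pancreas, against 31.6, 32.4, 44.4 and 37.2% in WT pancreas. The groups did not overlap, and the log2 difference of -0.46 ± 0.14 (SE, n = 4 each) did not pass the test (adjusted p = 0.358). A second Snap25 probe gave a log2 difference of -0.60, also without overlap, and another, dim one gave a log2 difference of -0.20 with overlap. Stx1a, the syntaxin that pairs with Snap25 on the plasma membrane, measured 37.6, 44.8, 38.3 and 44.2% in Glis3KO2 pancreas, against 47.8, 50.8, 55.1 and 61.5% in WT pancreas, a log2 difference of -0.38 (adjusted p = 0.373).

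Snap23, the relative of Snap25 that acinar cells use, overlapped between genotypes. It measured 168, 138, 186 and 189.9% in Glis3KO2 pancreas, against 167, 145, 160.3 and 171% in WT pancreas. Its log2 difference was 0.08, with a 95% interval of -0.21 to 0.36, and it turned to -0.05 with the Xist level as a covariate and to -0.07 without Glis3KO2 replicates 3 and 4. Stx3, a syntaxin of apical membranes and of granules, was read on 4 probes on the minus strand, that of the gene, which gave log2 differences of 0.04, 0.06, 0.32 and -0.23, all with overlap. The brightest probe listed as Stx3, from which its value in the class medians and figures comes, maps to the opposite strand and gave 0.17 (95% interval -0.10 to 0.44). Stx4a, a basolateral syntaxin, had a log2 difference of 0.02 (95% interval -0.25 to 0.29). The Epim probes, which lie outside the gene list by name, stand for Stx2, a further plasma membrane syntaxin. They gave log2 differences of 0.08 ± 0.13 for the brighter and -0.10 ± 0.15 for the dimmer probe (SE, n = 4 each), and both overlapped.

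The 3 vesicle SNAREs all overlapped between genotypes. Vamp8, the SNARE of the zymogen granule, measured 856, 755, 819 and 837% in Glis3KO2 pancreas, against 918, 807, 739 and 792% in WT pancreas. Its brighter probe gave a log2 difference of 0.01 with a 95% interval of -0.22 to 0.24, and the dimmer probe of the printed pair gave -0.09. The sign of so small a difference turned in 9 of 21 alternatives. Vamp2, the SNARE of synaptic vesicles and insulin granules that other cells express too, measured 208, 224, 212 and 198% in Glis3KO2 pancreas, against 198, 226, 239.8 and 238% in WT pancreas. The Vamp2 difference was -0.09 (95% interval -0.32 to 0.13), and its other probes gave -0.11 and -0.21. Vamp3, a SNARE of recycling endosomes, had a log2 difference of -0.08 (95% interval -0.37 to 0.22).

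Among the proteins that clamp, chaperone or recycle SNAREs, the complexins had the most negative differences. Cplx1, a complexin that clamps and helps release, measured 9.83, 11.0, 8.72 and 7.49% in Glis3KO2 pancreas, against 10.7, 12.0, 15.3 and 13.0% in WT pancreas. Glis3KO2 replicate 2 lay just above the lowest WT value, so the groups overlapped, and the log2 difference was -0.46 ± 0.16 (SE, n = 4 each, adjusted p = 0.430). It was -0.27 with normexp background correction and -0.28 without Glis3KO2 replicates 3 and 4. Cplx2, its relative, was read by 4 tested probes that all had a negative difference. The brightest gave a log2 difference of -0.22 without overlap, and the others gave log2 differences of -0.42, -0.68 and -0.56, of which the one at -0.68 did not overlap either.

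Stxbp2, also called Munc18-2, is the syntaxin-binding protein of acinar and blood cells. It measured 77.3, 84.1, 92.3 and 89.9% in Glis3KO2 pancreas, against 78.6, 80.2, 80.6 and 72.8% in WT pancreas. The log2 difference of 0.14 had a 95% interval of -0.09 to 0.36, and the groups overlapped. Nsf, the ATPase that takes spent SNARE complexes apart, had a log2 difference of 0.01, and its adaptor Napa had a log2 difference of -0.02, with 95% intervals of -0.25 to 0.27 and -0.26 to 0.22.

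Of the 6 tested Rab GTPases, Rab3b and Rab3a were separate between genotypes. Rab3b, a Rab3 form of endocrine and epithelial cells, measured 41.7, 39.6, 30.9 and 36.8% in Glis3KO2 pancreas, against 49.7, 42.9, 55.0 and 53.5% in WT pancreas. The groups did not overlap, and the log2 difference was -0.44 ± 0.13 (SE, n = 4 each, adjusted p = 0.359). A second, dim Rab3b probe gave a log2 difference of -0.72, also without overlap. It was well above background on 2 of 4 Glis3KO2 arrays and 4 of 4 WT arrays. Since it passed the filter through the WT arrays, its value is no support for the first probe. Rab3a, the main Rab3 of synaptic and insulin vesicles, measured 244, 205, 193 and 248% in Glis3KO2 pancreas, against 275, 298, 279 and 285% in WT pancreas. Its log2 difference was -0.36 (adjusted p = 0.383). Rab3c, another vesicle Rab3, was near background, with both probes overlapping at 0.31 and 0.21.

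Rab3d, the zymogen granule Rab3, measured 890.1, 867, 1048 and 1204% in Glis3KO2 pancreas, against 989.5, 1172, 831 and 932% in WT pancreas. The spread within each genotype was larger than the log2 difference of 0.03 (95% interval -0.31 to 0.36), which turned to -0.01 with quantile normalization. Rab27b, which acinar zymogen granules also carry, measured 150.3, 148, 144 and 133% in Glis3KO2 pancreas, against 137, 184, 168 and 129% in WT pancreas. Its groups overlapped, with a log2 difference of -0.09 on the brighter probe and -0.41 on a dim one that overlapped as well. Rab27a, the form that recruits insulin granules and is found in many cells, had a log2 difference of -0.09 (95% interval -0.31 to 0.14).

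The Rab effectors included the member with the most negative difference. Sytl4, or granuphilin, binds Rab27a and Rab3 and docks insulin granules at the plasma membrane. It measured 67.0, 54.3, 68.7 and 54.4% in Glis3KO2 pancreas, against 107, 87.2, 169 and 161% in WT pancreas, from 1 probe at chrX:128655685-128655744. The groups did not overlap, and 2 of the WT arrays were far above the other 2. The log2 difference was -1.05 ± 0.22 (SE, n = 4 each), or 2.08-fold lower, with a 95% interval of -1.55 to -0.56 and an adjusted p of 0.144.

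Rims2, a scaffold that links Rab3 to the release site in beta cells, measured 6.75, 6.42, 5.15 and 6.27% in Glis3KO2 pancreas, against 7.25, 9.07, 7.70 and 12.9% in WT pancreas. Both tested probes were separate, at -0.55 (adjusted p = 0.430) and -0.71, and the brighter gave -0.31 with normexp background correction. The broad effectors overlapped. Sytl1, a Rab27 effector also named Slp1, had a log2 difference of -0.08 and Sytl2, or Slp2, had a log2 difference of -0.06, with 95% intervals of -0.31 to 0.15 and -0.36 to 0.24.

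**Figure D3:**
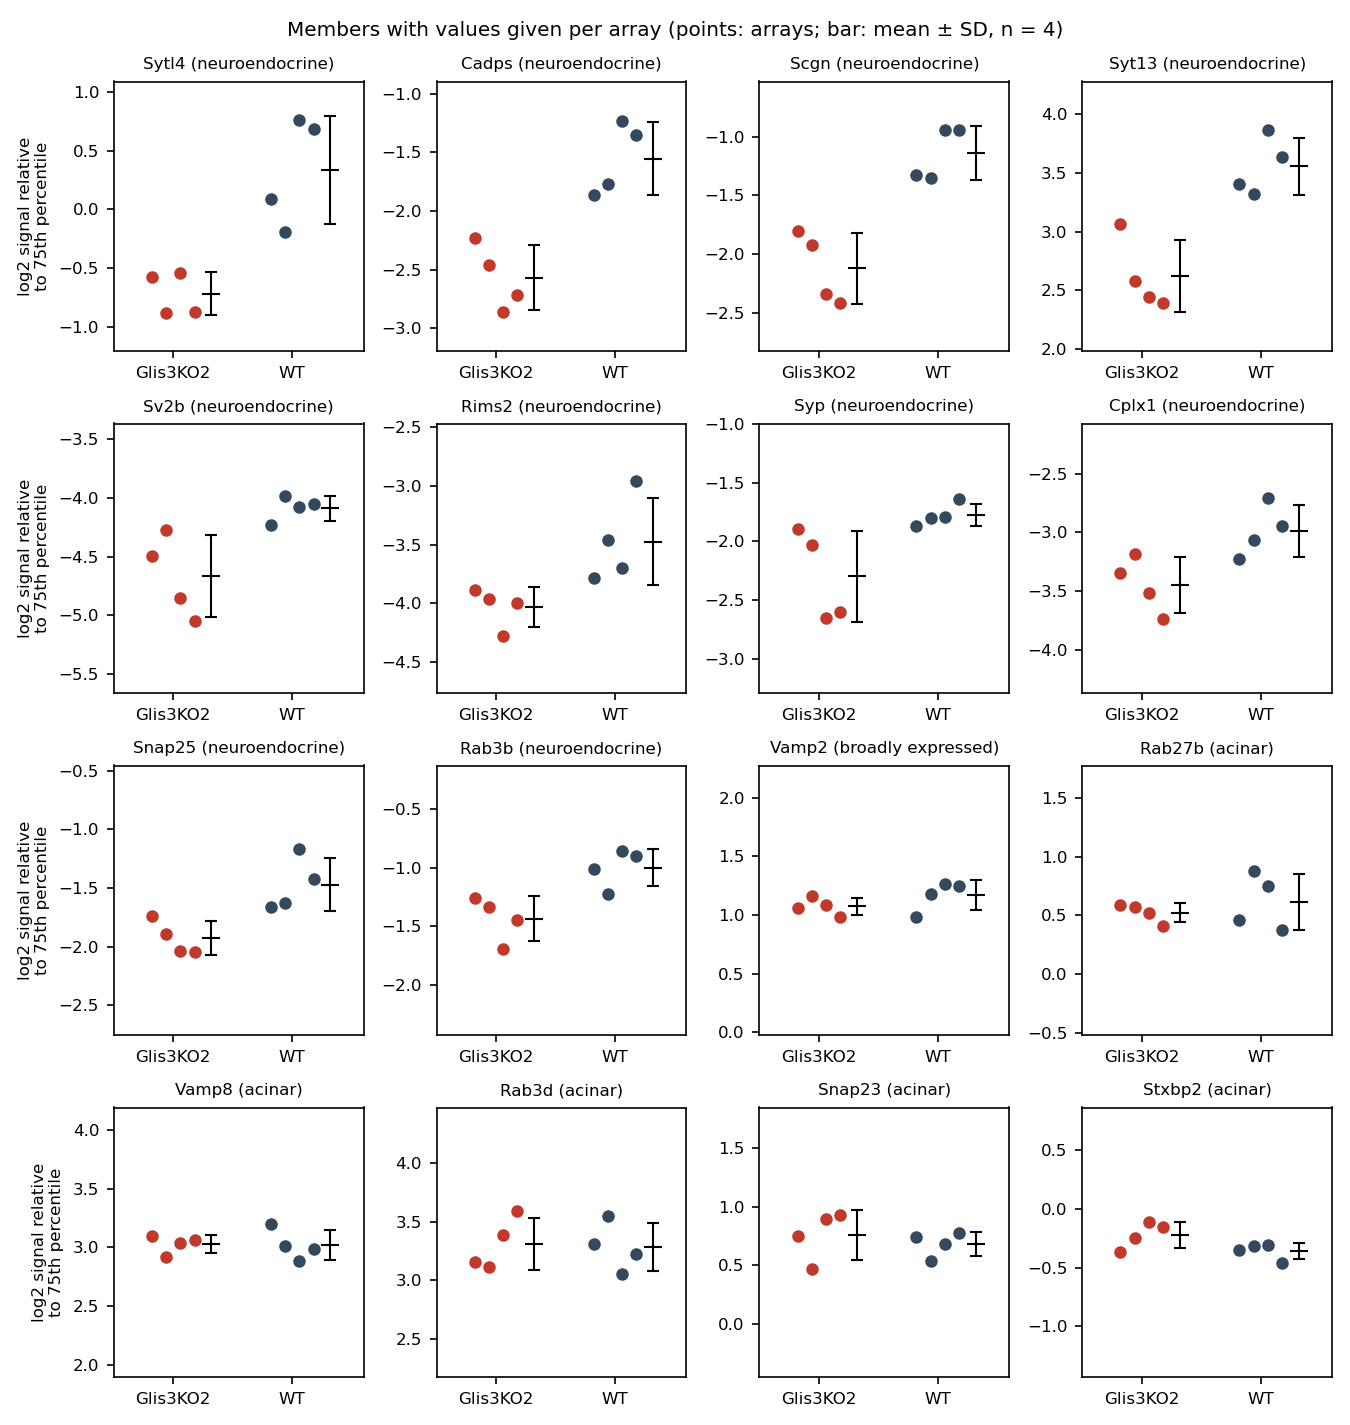
Log2 of the signal over the 75th percentile of its array for 16 members, 1 panel each with its own axis of equal span, with 4 Glis3KO2 arrays (red) left of 4 WT arrays (blue) and mean ± SD beside each group (n = 4). The groups are apart for Sytl4, Cadps, Scgn, Syt13, Sv2b, Rims2, Syp, Snap25 and Rab3b, and overlap for Cplx1, Vamp2 and the 5 acinar members.

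Of the priming factors, Cadps had the most negative difference. Cadps, or CAPS1, primes dense core granules and measured 21.3, 18.2, 13.8 and 15.2% in Glis3KO2 pancreas, against 27.5, 29.3, 42.6 and 39.3% in WT pancreas, with no overlap. The log2 difference was -1.01 ± 0.19 (SE, n = 4 each, adjusted p = 0.103), or 2.02-fold lower. The dimmer Cadps probe printed above gave -0.83, also without overlap. Its relative Cadps2 had a log2 difference of -0.16 on the brightest of 3 probes, and the other 2 gave log2 differences of -0.26 and -0.53, the last without overlap. That last, dimmest probe was well above background on 1 of 4 Glis3KO2 arrays and 4 of 4 WT arrays. Since it passed the filter through the WT arrays, its lack of overlap is no support. Unc13a, or Munc13-1, which opens syntaxin for priming, had log2 differences of -0.18 and -0.58 on its 2 tested probes, both with overlap. Unc13b, or Munc13-2, had a log2 difference of 0.10 on its brightest probe, and its 4 probes lay on both sides of 0.

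The calcium sensors were mixed. Scgn, or secretagogin, an EF-hand protein of islet endocrine cells that binds SNAREs, measured 28.7, 26.4, 19.7 and 18.7% in Glis3KO2 pancreas, against 39.8, 39.1, 51.9 and 52.1% in WT pancreas. All 4 Glis3KO2 arrays were below all WT arrays, with replicates 3 and 4 lowest. The log2 difference was -0.98 ± 0.18 (SE, n = 4 each), or 1.97-fold lower, with a 95% interval of -1.38 to -0.58. Over 21 alternatives it stayed negative, between -1.09 and -0.70, with adjusted p between 0.0204 and 0.370. Without Glis3KO2 replicates 3 and 4 the difference was -0.72.

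Syt13, a synaptotagmin that lacks the usual calcium-binding residues, measured 835, 597, 545 and 526% in Glis3KO2 pancreas, against 1060.3, 1001, 1454 and 1243% in WT pancreas on its brighter probe. The groups did not overlap, and the log2 difference was -0.94 ± 0.18 (SE, n = 4 each, adjusted p = 0.112), or 1.92-fold lower. The dimmer Syt13 probe, upstream in the gene, gave -0.20 with overlap. With the mean of both probes the Syt13 difference was -0.57. Which of the probes reads the gene more truly was not tested.

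The other synaptotagmins overlapped between genotypes. Syt4, a synaptotagmin of maturing granules, had a log2 difference of -0.50 ± 0.26 (SE, n = 4 each), and its second probe had 0.11. Syt1, the fast sensor of synaptic vesicles, had a log2 difference of -0.27 on the brightest of 3 probes, and the others gave log2 differences of -0.45 and 0.30. Syt7, a slow sensor used for insulin and glucagon release, had a log2 difference of -0.05, and Syt9, another sensor of insulin granules, had a log2 difference of -0.15. Syt3 and Syt5 were among the 4 neuroendocrine members above 0, at 0.11 and 0.34, with 95% intervals of -0.21 to 0.42 and -0.06 to 0.74. Syt11, a form that does not bind calcium, had a log2 difference of -0.22, and its 5 probes ran between -0.99 and 0.08, all with overlap.

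Of the vesicle membrane proteins, Sv2b and Syp were separate between genotypes. Sv2b, a glycoprotein of synaptic and endocrine vesicles, measured 4.44, 5.19, 3.47 and 3.03% in Glis3KO2 pancreas, against 5.32, 6.32, 5.92 and 6.05% in WT pancreas. The log2 difference of -0.58 ± 0.17 (SE, n = 4 each, adjusted p = 0.349) came from the brightest probe, and the others gave log2 differences of -0.96 and 0.14 with overlap. Both of those were dim and not well above background on all arrays. The probe at -0.96 measured 20.3% on WT replicate 4, against 2.29, 3.14 and 1.11% on WT replicates 1 to 3. Without Glis3KO2 replicates 3 and 4 the difference of the brightest probe was -0.29, and with normexp background correction -0.21. Syp, synaptophysin, measured 26.9, 24.5, 15.9 and 16.5% in Glis3KO2 pancreas, against 27.4, 28.7, 28.9 and 32.1% in WT pancreas. Glis3KO2 replicates 1 and 2 lay close under the WT arrays and replicates 3 and 4 far below them, and the Syp difference of -0.52 (adjusted p = 0.444) was -0.19 without those 2 arrays.

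Sv2a, the widespread SV2 form, had a log2 difference of -0.35 with overlap, and Syn2, a synapsin that tethers vesicles, had a log2 difference of -0.32 with overlap. Syn1 measured 4610.3, 2303, 1212 and 2435% in Glis3KO2 pancreas, against 3632, 1951, 1696 and 1629% in WT pancreas, the widest spread within a genotype among the members. Its 95% interval was -0.73 to 1.07. That value comes from the probe rich in G and C printed above, and the other tested Syn1 probe gave a log2 difference of -0.16.

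**Figure D4:**
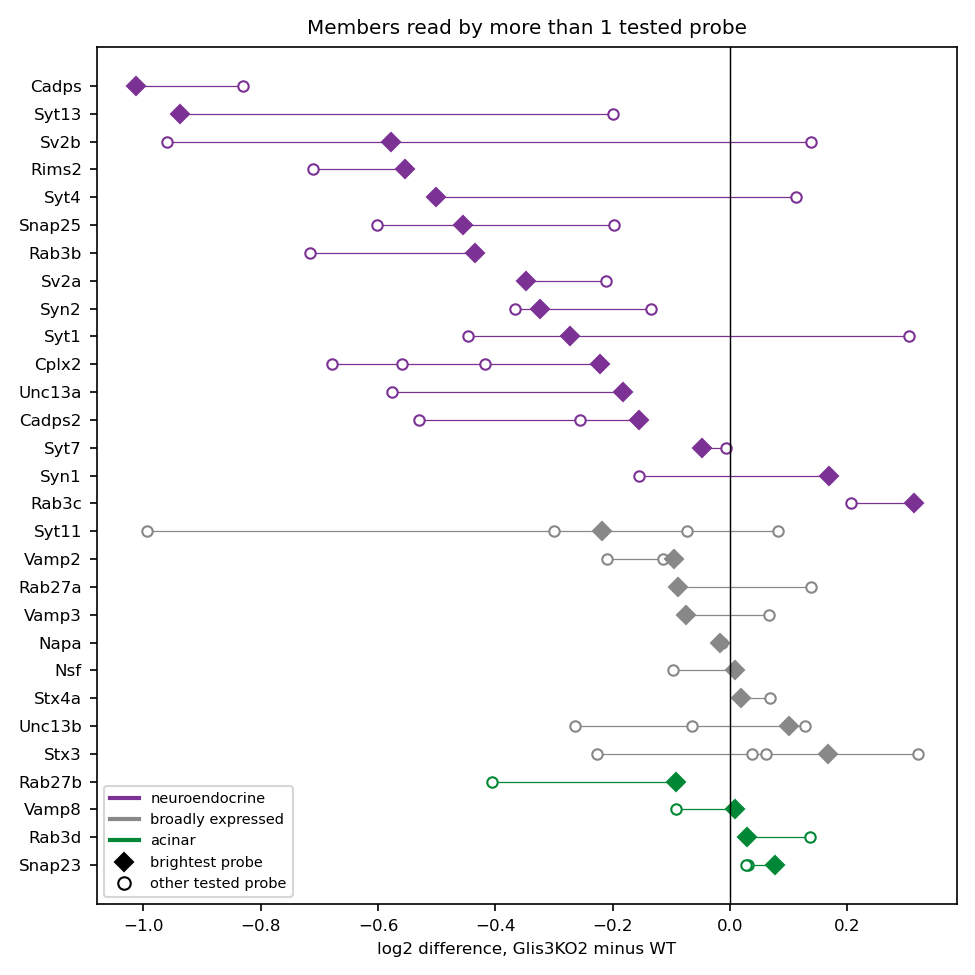
Log2 difference (Glis3KO2 minus WT) of every tested probe for the 29 members read by more than 1 tested probe, with diamonds for the brightest probe and circles for the others. All probes of a gene share a sign in 12 of 16 neuroendocrine, 3 of 9 broad and 3 of 4 acinar members.

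Several members were read by more than 1 probe. Of 29 members with more than 1 tested probe, 18 had all probes on the same side of 0, among them Cadps, Syt13, Snap25, Rab3b, Rims2 and Cplx2. The second Rab3b probe was near background. Sv2b, Syt4, Syt1 and Syn1 were the neuroendocrine members whose probes lay on both sides. With the mean of all detected probes of a gene in place of the brightest, 10 neuroendocrine members were separate and the median was -0.38.

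Other genes of the pathway, 86 names in all with a tested probe (further syntaxins, Rab effectors, the exocyst and active zone proteins), had a median difference of 0.01. Of them 1 passed the test as lower and 0 as higher, beside 0.174% and 0.0812% of all probes. In 4 all Glis3KO2 arrays were below all WT arrays, and in 1 above, beside 3.35% and 1.86% of all probes, so these counts are near the background. Rab37, a granule Rab of islet and mast cells, measured 34.6, 36.1, 31.4 and 25.9% in Glis3KO2 pancreas, against 55.6, 53.7, 64.2 and 69.2% in WT pancreas. It fell by 0.93 ± 0.14 on the log2 scale (SE, n = 4 each, adjusted p = 0.0426). The call was lost in 13 of 20 alternatives, among them every omission of a single array (adjusted p between 0.0587 and 0.180), and the highest adjusted p was 0.315, on the spike-in scale.

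Rims3 and Rimbp2, active zone proteins that work beside Rims2, were separate but not past the threshold. Rims3 measured 20.5, 23.7, 16.7 and 14.1% in Glis3KO2 pancreas, against 34.4, 37.8, 54.5 and 54.8% in WT pancreas, a log2 difference of -1.27 (adjusted p = 0.0746). Rimbp2 measured 45.5, 28.4, 23.9 and 20.4% in Glis3KO2 pancreas, against 55.0, 54.3, 82.8 and 71.8% in WT pancreas, a log2 difference of -1.21 (adjusted p = 0.144). The 1 gene that lay wholly higher was Stx19, listed as A030009B12Rik, with a log2 difference of 0.76 (adjusted p = 0.332), or 0.16 with normexp background correction.

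Islet cells use the neuroendocrine isoforms. Of 10 beta cell markers, 7 fell past the threshold and 9 had a negative difference, with a median of -1.38. Among all probes 0.174% fell past the threshold and 52.0% had a negative difference. Their summed signal was 19245% to 39674% in Glis3KO2 pancreas, against 73351% to 90433% in WT pancreas. Of this, Ins2 alone gave 2552% to 5684% in Glis3KO2 pancreas and 43588% to 53914% in WT pancreas. Iapp, the 1 marker with a positive difference (0.45, adjusted p = 0.688), gave 11492% to 28763% in Glis3KO2 pancreas and 9489% to 12742% in WT pancreas. Ins2, an insulin gene, fell by 3.70 on the log2 scale (adjusted p = 0.000536). Chga, a granule matrix protein of endocrine cells, fell by 1.93 (adjusted p = 0.00590), and Chgb, its relative, rose by 1.77 (adjusted p = 0.0167). Of 8 markers of other islet cells 2 fell past the threshold (Ppy and Irx2) and 7 had a negative difference, beside the same shares of all probes. Their median was -0.59. Their sum, mostly the signal of the glucagon gene Gcg, was 12897% to 20544% in Glis3KO2 pancreas, against 21532% to 24161% in WT pancreas.

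Neurons and glia share the neuroendocrine isoforms with islets. Of 14 tested nerve and glia markers 0 passed the test in limma, beside 0.256% of all probes. At an unadjusted p of 0.05, 5 were lower, beside 5.87% of all probes. A negative difference was found in 13, beside 52.0% of all probes, and the median was -0.29. Elavl4, Nefl and Prph were separate and lower, beside 3.35% of all probes. The summed signal of the 14 was 789% to 994% in Glis3KO2 pancreas, against 956% to 1170.3% in WT pancreas. The part of islet and nerve cell number in the neuroendocrine members' differences was not tested.

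Acinar markers, 16 in all, included 0 past the test in limma, 0 at an unadjusted p of 0.05 and 13 with a negative difference. Among these markers 1 was separate and lower, beside 3.35% of all probes. Their median was -0.13. The shares of all probes were 0.256% past the test, 5.87% lower and 3.1% higher at an unadjusted p of 0.05, and 52.0% negative. Their sum was 506084% to 659370% in Glis3KO2 pancreas, against 582281% to 681558% in WT pancreas. The 5 acinar exocytosis members were positive in 4 cases, and none of them passed the test either. The duct, endothelial and leukocyte lists had 0 of 7, 0 of 6 and 0 of 8 past the test. All 6 endothelial markers had a negative difference, with a median of -0.17, and 2 were separate, beside 3.35% of all probes. Their sum was 2132% to 2505% in Glis3KO2 pancreas, against 2654% to 3126% in WT pancreas. Of the duct markers 3 were negative and 1 was separate, with a median of 0.05. Of the leukocyte markers 3 were negative and 0 separate, with a median of 0.12.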

How the data were processed

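RNA of 8 whole pancreases (500 ng each, per the labels) was labelled with Cy3 and hybridised to 1-colour Agilent mouse arrays. The deposited values are linear spot intensity values. Per the file headers they come from Feature Extraction 9.5.3.1 (9.5 in the submitters' processing notes) with spatial detrending and probe positions in build mm7. The deposited series table equals the processed signal in all 45018 rows. The number of arrays limits the precision.

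The processed signal of each array was put on a log2 scale after division by its 75th percentile (43379 non-control spots). Outlier spots (56 to 130 per array, none of a member) were left out, no spot was saturated, and a probe's spots were averaged. A probe was tested if well above background on 4 or more of 8 arrays (33239 of 41174). Each gene's value is that of its probe with the highest mean over all arrays. RefSeq gene names were found for 22951 of 25510 probes that carry a RefSeq accession. 

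Genotypes were compared with limma 3.58.1 (lmFit, eBayes, 2-sided, R 4.3.3) with no term besides genotype, and p-values were adjusted by Benjamini-Hochberg over the 33239 probes. The fit was tested on simulated data. Every adjusted p is from that fit unless an alternative is named. Values per array are given for members past the threshold, those with separate groups and an absolute log2 difference of 0.5 or more, the 5 acinar members and the member of each role with the largest difference. Some further members with separate groups (Stx1a and Rab3a) and Syn1 were added after their values were seen. Pathway genes are named if past the threshold, or separate with a difference of 0.5 or more. The members and lists were chosen with earlier results of these data known, and the roles and classes of the members with them.

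Alternatives were normexp (offset 50), quantile normalization, median scaling, no filter, a filter on all 8 arrays, the deposited table, the replicate number as a block, a trended and robust variance, array weights, Xist as a covariate, the mean of a gene's probes, scaling to the spike-in probes (added after values were seen), and leaving out arrays singly or Glis3KO2 replicates 3 and 4 together. Correlations of same-numbered arrays' deviations were 0.13, 0.09, 0.24 and -0.04. The same-numbered WT array was the best match for Glis3KO2 replicates 2 and 3 and not for replicates 1 and 4. These values do not settle whether the numbers pair the mice. Slide could not be a block. Python 3.11.15 with pandas 2.3.3 and matplotlib 3.10.9 drew the figures.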

Additional observations from a re-analysis of the deposited data

Results flagged for a closer look

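In 3 of 82 groups of 4 arrays (41 members in each genotype), 1 array lay far from the other 3, and chance flags about 1 group in 20. Sytl1 had a log2 signal of 0.26 in Glis3KO2 replicate 1, against -0.04 to 0.00 in the other Glis3KO2 arrays. Napa had 3.10 in Glis3KO2 replicate 4, against 2.88 to 2.91 in the others. Unc13b had 1.27 in WT replicate 1, against 1.63 to 1.69 in the other WT arrays. None of these 3 members had groups that did not overlap.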

How the results depend on the processing

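Over 20 of 21 alternatives the medians of the neuroendocrine (-0.41 to -0.26), broad (-0.07 to -0.02) and acinar members (-0.04 to 0.09) moved by less than their spread, and 9 to 15 neuroendocrine members had lower, non-overlapping groups. The exception was scaling to the spike-in probes, chosen after seeing the data, which gave medians of -0.081, 0.22 and 0.31, 3 such neuroendocrine members, 0 members and 0 pathway genes past the threshold, and 54 of all probes. On that scale Rab27b was 0.18 and Vamp2 0.18. The count of members past the threshold, 0 as reported, was 3 with normexp and with a trended and robust variance, and 1 with quantile normalization, median scaling and array weights. It ranged between 0 and 1 when single arrays were left out. The replicate block left it at 0. The 85 probes past the threshold became 51 without the filter on dim probes, 15 with the replicate block, 142 with the trended and robust variance, 27 with Xist as a covariate and 11 without Glis3KO2 replicates 3 and 4, and ranged between 35 and 96 when single arrays were left out. The labels do not say whether replicate numbers pair the mice, so what the loss under the block means was not tested. The count of pathway genes past the threshold, 1 as reported, became 2 with normexp, quantile normalization, median scaling, the filter on all 8 arrays and the trended and robust variance, 0 without a filter, with the block, with Xist and without Glis3KO2 replicates 3 and 4, and 0 to 1 when single arrays were left out. Rab37 was lost in all 8 such omissions, and the 1 gene past the threshold without Glis3KO2 replicate 1 was Rimbp2 (adjusted p = 0.0349). Other turned signs among the members named with array values were of small differences. Vamp8 became -0.033 with quantile normalization, -0.0062 with array weights, -0.019 with Xist, -0.042 with the mean of its probes, -0.013 without Glis3KO2 replicates 3 and 4, and -0.037 to 0.068 without single arrays. Rab3d became -0.011 with quantile normalization, -0.020 with Xist, -0.15 without Glis3KO2 replicates 3 and 4, and -0.064 to 0.12 without single arrays. Snap23 became -0.049 with Xist and -0.075 without Glis3KO2 replicates 3 and 4, and Rab27b became 0.0036 with Xist. The cause of these changes was not tested. Low signal limits the reading of Rab3c and Doc2b, which were not well above background on all arrays. It also limits several dimmer probes of other members, among them the second Rab3b probe, the dimmest Cadps2 probe and the dimmer Sv2b probes. The brightest probes of Rims2, Sv2b and Syp were well above background on all arrays, but with normexp their groups overlapped.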
